A study of Mus musculus with 32 samples.

Results

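Malat1, Neat1, Gas5, Snhg1, Snhg3, Snhg6, Miat, Rmst and Sox2ot are long noncoding RNAs, and their levels were followed through the first days of retinal organoid growth. These 9 RNAs were taken by name from the 55492 rows of the deposited expression table, and all 9 passed the filter on low values used for the tests. Expression was measured as FPKM, fragments scaled to transcript length and library depth, in polyadenylated RNA from mouse cultures. Embryonic stem cells (day 0) and the retinal organoids made from them (days 2, 4 and 6) were sampled.

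There were 4 kinds of culture. WT was the Rx:GFP stem cell line with no change at Mettl3 and no Dex. KO was the line labelled as a Mettl3 knockout, also without Dex. Both other groups were that knockout line overexpressing wild-type METTL3 fused to a domain called GRBD, either without dexamethasone (no Dex) or with it (Dex). Mettl3 encodes the catalytic subunit of the complex that writes N6-methyladenosine (m6A) on RNA. Dexamethasone is a synthetic glucocorticoid, given at 10 µM. The series' design text places the fusion protein in the cytosol in no Dex cultures and in the nucleus in Dex cultures. Dex was given to no culture without the fusion, so what Dex does through the fusion and what it does by itself cannot be told apart. All organoid cultures, WT included, had AGN at 0.1 µM in their medium. The protocol lists Dex for organoids of days 2, 4 and 6, whereas 2 day 0 samples carry a Dex label, and the sample labels were followed. All libraries carry 1 batch label. Each of the 16 groups had 2 libraries from separate rounds of library preparation and sequencing. Separate cultures are not stated, so the p-values measure the spread between these libraries, which may be technical. The number of knockout or fusion clones is not stated.

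Malat1 and Neat1 are single-exon nuclear RNAs encoded side by side. Malat1 gathers in nuclear speckles beside splicing factors, and the long Neat1 transcript is the scaffold of paraspeckles. Values here are per gene, so the 4 annotated Neat1 transcripts were not told apart and the long one was not measured by itself. The libraries were of polyadenylated RNA, so Malat1 or Neat1 molecules without a poly(A) tail may be missed. Their levels here are not those of total RNA. Gas5, Snhg1, Snhg3 and Snhg6 are host genes, whose introns carry small nucleolar RNAs that guide chemical modification of other RNAs, while the spliced host transcripts are known targets of nonsense-mediated decay. Miat, Rmst and Sox2ot are transcripts of the nervous system and eye: Miat was also described as a retinal noncoding RNA, Rmst is a neural RNA known to bind SOX2, and Sox2ot is the transcription unit that contains the Sox2 gene. Because samples were bulk cultures, fewer cells of a type and less RNA per cell cannot be told apart in any result below.

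Libraries held an estimated 28.7 M to 55.1 M fragments (median 38.1 M), and duplicates correlated at r = 0.992 to 0.996 across genes. Mettl3 RNA was not lower in KO than in WT: at day 0 it read 36.8 and 33.2 FPKM in WT and 43.8 and 42.9 FPKM in KO, a log2 difference of 0.30 ± 0.06 (SE, adjusted p = 0.000417), and no difference was called at days 2, 4 and 6. A gene-level value checks a knockout only where the lesion removes the RNA. The lesion is not given in the sources used here, so "KO" stands for libraries labelled KO throughout. The 8 stem cell markers summed to 2212 to 2460 FPKM at day 0 and 200.5 to 286.5 FPKM at day 6. The 7 eye field markers summed at day 6 to 712 and 678 FPKM in WT, 439.1 and 438.7 in Dex, 199.8 and 195.5 in no Dex, and 119.6 and 120.5 in KO.

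Positions are those of GENCODE M21 on GRCm38, the assembly also called mm10. Malat1 lies on the minus strand of chromosome 19 (chr19:5795690-5802672), as 1 exon of 6983 bases. Neat1 lies on the same strand (chr19:5824708-5845478), as 1 exon of 20771 bases that ends 22035 bases from Malat1. Snhg1 (chr19:8723475-8726443, plus strand) is on that chromosome too. Gas5 (chr1:161034422-161038539, plus) and Snhg6 (chr1:9941959-9944118, minus) share chromosome 1, and Snhg3 is at chr4:132348014-132353686 (minus). Miat is at chr5:112213228-112229395 (minus), Rmst at chr10:92071037-92165170 (minus), and Sox2ot, the longest unit at 578350 bases, at chr3:34104270-34682619 (plus).

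METTL3 acts on adenosines in a short sequence context whose best-known form is GGACT, so the exons were searched for these 5 letters on the transcribed strand. Across 16173 tested genes with a transcript in the annotation, 86.7% of longest transcripts held GGACT, at a median of 1.01 per kilobase. Miat held 19, or 2.07 per kilobase, more than 98.7% of the 851 transcripts of similar length. Neat1 held 23 (1.11 per kilobase), more than 56.5% of only 23 transcripts of similar length, and Malat1 held 9 (1.29 per kilobase), more than 74.3% of 1744. Per kilobase, the share of similar transcripts below was 82.6% for Rmst, 61.6% for Snhg6, 56.1% for Gas5, 13.1% for Snhg1 and 7.13% for Sox2ot. The counts were 5 in Rmst, 3 in Gas5, 1 each in Snhg1, Snhg6 and Sox2ot, and 0 in the 581 bases of Snhg3, a length at which 41.0% of transcripts held the motif. The window of 60 bases with the most copies is shown for the 3 RNAs that carried most, with GGACT in capitals, 5′ to 3′ on the transcript. They lie at chr19:5801416-5801475 (Malat1), chr19:5845074-5845133 (Neat1) and chr5:112217055-112217114 (Miat), all exonic and on the minus strand. A match is a description of the letters, and methylation was not measured in these files.
Malat1: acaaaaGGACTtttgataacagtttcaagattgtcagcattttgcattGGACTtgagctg
Neat1: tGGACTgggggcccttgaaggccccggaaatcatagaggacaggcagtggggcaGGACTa
Miat: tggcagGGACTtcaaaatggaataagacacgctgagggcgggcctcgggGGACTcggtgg

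Small nucleolar host genes are known for transcripts that begin with a C and a run of pyrimidines, as those of the translation machinery do. RefSeq promoters (GRCm38.p6) were at hand for 6 start sites of 5 of the RNAs. A C followed by pyrimidines, 5 or more bases in all and within 5 bases of the start, was found at 1 of the 2 Gas5 starts, at the Snhg3 start and at the Miat start. The rule was met at 18.3% of 32851 promoters and at 6 of 16 promoters of other small nucleolar host genes. The 60 bases around the 3 starts are printed with that run in capitals, for Gas5 at chr1:161035156-161035215, Snhg3 at chr4:132353637-132353696 and Miat at chr5:112228899-112228958.
Gas5: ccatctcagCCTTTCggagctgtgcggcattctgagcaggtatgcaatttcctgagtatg
Snhg3: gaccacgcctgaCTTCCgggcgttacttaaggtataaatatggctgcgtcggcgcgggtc
Miat: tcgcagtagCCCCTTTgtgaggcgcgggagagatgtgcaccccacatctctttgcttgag

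The 9 RNAs differed widely in level on the FPKM scale, which divides by length. Malat1 was highest, with a median over the 32 libraries of 517 FPKM and a range of 406 to 808. Snhg1 followed with a median of 267 (161 to 323), Gas5 with 153 (76.1 to 218), Snhg3 with 79.3 (33.0 to 139) and Snhg6 with 19.2 (13.3 to 25.0). Neat1 had a median of 15.8 FPKM but ran from 2.90 to 95.1. Miat ran from 0.60 to 29.7 (median 10.4), Sox2ot from 0.48 to 8.70 (median 0.855) and Rmst from 0 to 27.9 (median 0.055), with 11 libraries listed at 0. So the group means of Malat1, Snhg1 and Snhg6 spanned less than a factor of 2 (1.92, 1.91 and 1.72), those of Neat1 a factor of 30.4 and those of Miat a factor of 41.2. In the median, duplicates were close for 8 of the 9, with a ratio between 1.02 and 1.16, but not for Rmst. The largest ratio of a pair was 1.76 for Miat, 1.47 for Snhg3, 1.46 for Sox2ot, 1.29 for Gas5 and 1.26 for Snhg6. It was 1.15 for Neat1, 1.14 for Malat1 and 1.08 for Snhg1.

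Against WT, KO cultures had less Neat1 at every day sampled, more of the host RNAs Gas5, Snhg1 and Snhg3 at days 0 and 2, and less Miat from day 2. At day 6 they also had less Rmst and Sox2ot. Calls were made at an adjusted p under 0.05 (limma with Benjamini-Hochberg adjustment over 16276 genes, two-sided). The Snhg1 excess at day 2 was not called after median-of-ratios rescaling (0.03, adjusted p = 0.450). The Gas5 excess at day 0 was not called with the compared groups fitted alone (adjusted p = 0.176), and it shrank to 0.22 without WT replicate 1. In KO against WT at day 0, 3 of the 9 were called higher and 2 lower, beside 18.4% and 29.8% of all tested genes (48.2% in either direction). For day 2 the counts were 4 and 2 (37.5% and 21.3%, 58.9% in all), and for day 4 they were 0 and 2 (36.5% and 24%, 60.5% in all). For day 6 they were 0 and 7 (30.9% and 34.2%, 65.1% in all). After rescaling, Malat1 (adjusted p = 0.128 by limma) and Snhg1 (0.0775) were no longer called at day 6. Neat1, Gas5, Miat, Rmst and Sox2ot were still called lower. At days 0 and 2 the total share of the 9 was near the background, and at day 4 below it. The median log2 difference of the 9 at day 6 was -0.35 beside -0.03 for all genes. Changes are given on the log2(FPKM + 1) scale with their standard error, which understates the change of RNAs at low level.

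In no Dex against KO, 3 of the 9 were higher and 2 lower at day 0 (19.3% and 29.8% of all genes, 49.1% in either direction). At day 2 there was 1 higher and 0 lower (14.8% and 22.2%, 37% in all), as at day 4 (9.66% and 17%, 26.7% in all). Day 6 gave 5 higher and 2 lower (21.1% and 27.9%, 49% in all). Dex against no Dex gave 1 higher and 2 lower at day 0 (27.3% and 16.1%, 43.4% in all) and 0 and 1 at day 2 (12.7% and 31.5%, 44.3% in all). As deposited, Dex against no Dex gave 4 and 0 at day 4 (18.3% and 21.9%, 40.2% in all) and 3 and 1 at day 6 (23.8% and 19%, 42.7% in all). After rescaling, day 2 gave 5 higher (Malat1, Neat1, Snhg1, Snhg6 and Miat) and 1 lower (Sox2ot). Of all genes called at that day, 50.1% were then higher, beside 28.7% as deposited. The share of all genes called after rescaling is not given here. On the log2(FPKM + 1) scale Neat1 had the largest called rise in Dex of the 9 at days 0, 4 and 6. With a pseudocount of 0.1 the day 4 rise of Rmst (1.73) exceeded that of Neat1 (0.804).

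Dex against WT shares its libraries with the other comparisons and is given only as distance from WT. It had 4 higher and 2 lower at day 0 (19% and 30.8% of all genes, 49.8% in either direction), 3 and 1 at day 2 (12.2% and 17.2%, 29.4% in all), 2 and 2 at day 4 (25.7% and 19.1%, 44.7% in all), and 3 and 4 at day 6 (29.2% and 32.2%, 61.4% in all). From day 0 to day 6, 5 of the 9 rose and 2 fell in WT (43.6% and 34.5%, 78.1% in all), and 4 rose and 3 fell in KO (45% and 35.4%, 80.4% in all). In no Dex 4 rose and 4 fell (48% and 33.9%, 81.9% in all), and in Dex 5 rose and 3 fell (46.4% and 34%, 80.4% in all). The difference between lines itself changed from day 0 to day 6 for 5 of the 9 in KO against WT, all downward (25.8% of all genes, with 31.1% upward and 56.9% in all). In Dex against no Dex it changed upward for 4 and downward for 2 (22.7% and 25.9%, 48.7% in all).

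**Figure D1:**
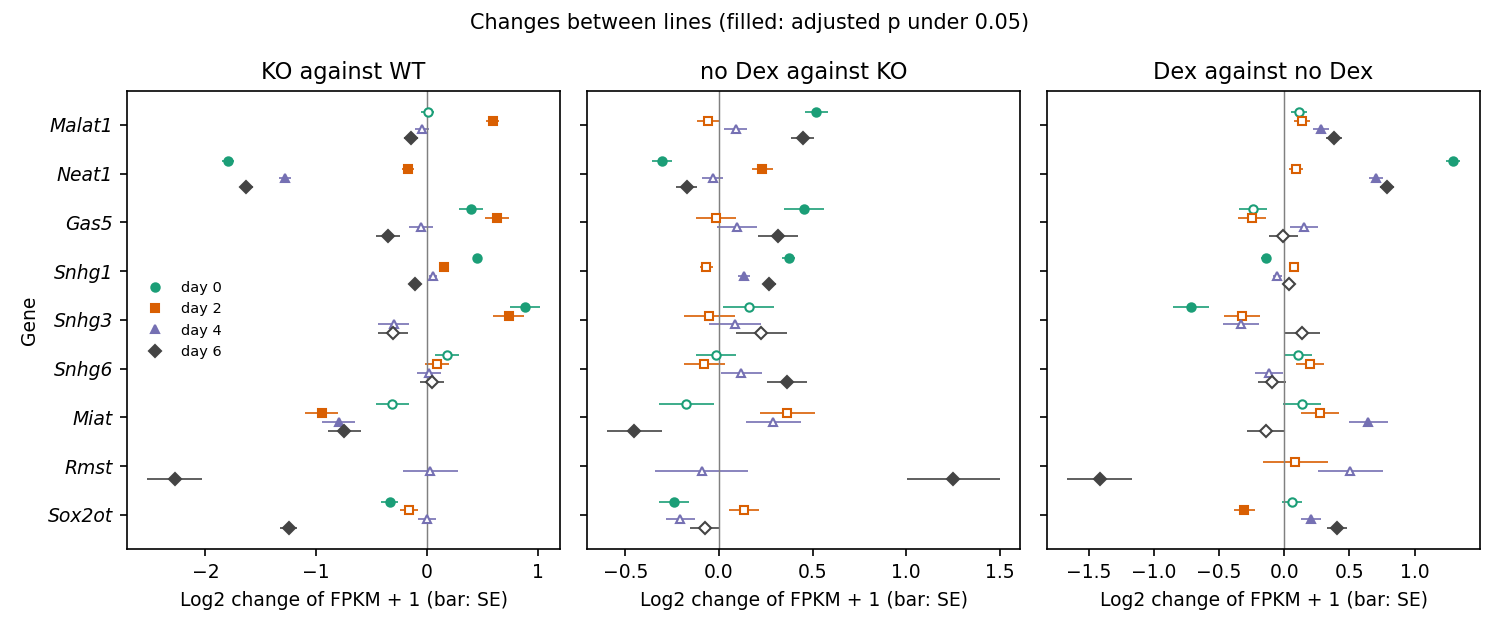
Log2 change of FPKM + 1 (horizontal axis, bars show the standard error) of each RNA between lines, in KO against WT, no Dex against KO and Dex against no Dex, with 1 symbol per day, filled where the adjusted p was under 0.05. Neat1 lies left of 0 in KO against WT at each day (-1.79 at day 0) and right of 0 in Dex against no Dex (1.29 at day 0), while Snhg6 stays near 0 in both; Rmst is drawn only where the mean of at least 1 of the groups reached 0.05 FPKM.

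Neat1 was lower in KO than in WT at all 4 days and higher in Dex than in no Dex at days 0, 4 and 6. At day 0 it read 89.7 and 95.1 FPKM in WT, 27.4 and 24.5 in KO, 20.9 and 20.7 in no Dex, and 52.7 and 52.1 in Dex. No library of one line reached into the range of another. KO was 3.56-fold lower than WT (log2 -1.79 ± 0.06, adjusted p = 2.02e-14). Dex was 2.52-fold higher than no Dex (1.29 ± 0.06, adjusted p = 3.93e-12) and still 1.76-fold lower than WT (-0.81 ± 0.06, adjusted p = 7.66e-10). No Dex was below KO (-0.30 ± 0.06, adjusted p = 0.000139), by less after rescaling (-0.18, adjusted p = 0.011).

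By day 2 the lines had come together. Neat1 read 21.2 and 20.5 FPKM in WT, 18.3 and 18.4 in KO, 21.4 and 22.2 in no Dex, and 24.0 and 22.4 in Dex. The KO difference was small (-0.17 ± 0.06, adjusted p = 0.0128) and was not called without WT replicate 1 (adjusted p = 0.0867) or KO replicate 1 (adjusted p = 0.0544), whereas rescaling gave a larger value (-0.29, adjusted p = 0.000175). No Dex was above KO here (0.23 ± 0.06, adjusted p = 0.00282), and Dex did not differ from no Dex beyond the threshold (0.09, adjusted p = 0.217), although after median-of-ratios rescaling it did (0.20, adjusted p = 0.00651).

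The lines parted again at days 4 and 6. At day 4 Neat1 read 13.0 and 13.0 FPKM in WT, 4.78 and 4.76 in KO, 4.52 and 4.75 in no Dex, and 8.06 and 8.27 in Dex. At day 6 it read 12.8 and 13.3 in WT, 3.68 and 3.42 in KO, 3.18 and 2.90 in no Dex, and 5.57 and 6.39 in Dex. The order at both days was WT, Dex, then KO and no Dex, with the Dex libraries between the others and overlapping neither. KO was 2.73-fold below WT at day 4 (-1.28 ± 0.06, adjusted p = 2.91e-13) and 3.68-fold below at day 6 (-1.63 ± 0.06, adjusted p = 3.60e-15). Dex was 1.76-fold above no Dex at day 4 (0.70 ± 0.06, adjusted p = 8.68e-09) and 1.97-fold above at day 6 (0.79 ± 0.06, adjusted p = 1.24e-09). KO and no Dex did not differ beyond the threshold at day 4 (-0.03, adjusted p = 0.720), and their small difference at day 6 (-0.17, adjusted p = 0.0152) was not called without KO replicate 1 (adjusted p = 0.14) or no Dex replicate 2 (adjusted p = 0.159), nor with the compared groups fitted alone (0.143).

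Over the 6 days Neat1 fell in every line, 7.07-fold in WT, 7.31-fold in KO, 6.84-fold in no Dex and 8.76-fold in Dex, with adjusted p between 7.24e-20 and 1.23e-18. The KO difference did not change beyond the threshold between day 0 and day 6 (difference of differences 0.16 ± 0.08, adjusted p = 0.0843), a value that was called after rescaling (0.19, adjusted p = 0.0459) or without KO day 0 replicate 1 (0.24, adjusted p = 0.0159) and turned to -0.02 with a pseudocount of 0.1. The Dex difference was smaller at day 6 than at day 0 (-0.51 ± 0.08, adjusted p = 2.79e-05). Leaving out libraries aside, this change ranged from -0.51 to -0.38 over the 6 other settings and was called in each.

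**Figure D2:**
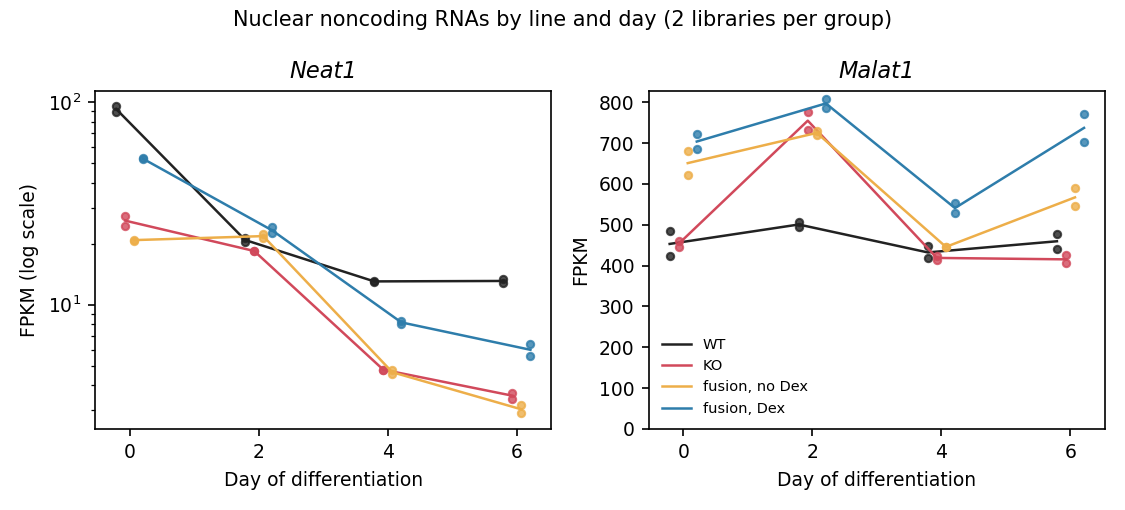
FPKM of Neat1 (left, log scale) and Malat1 (right, linear scale from 0) against day of differentiation, with 1 point per library and lines through the means of the 2 libraries of each group. WT Neat1 starts at 89.7 and 95.1 FPKM, far above KO at 27.4 and 24.5, the lines meet near 20 at day 2 and part again, while Malat1 stays between 406 and 808 FPKM and is highest in Dex.

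Markers of extraembryonic endoderm moved with the WT and KO difference and, from day 2, differed between Dex and no Dex. Called lower in KO were 29.8%, 21.3%, 24% and 34.2% of all genes at days 0, 2, 4 and 6. All 6 markers (Gata4, Gata6, Sox17, Foxa2, Dab2 and Sox7) were called lower in KO at each of the 4 days. Their summed level at days 0, 2, 4 and 6 was 21.3 to 22.6, 52.4 to 52.6, 40.6 to 42.4 and 66.9 to 67.0 FPKM in WT. It was 3.99 to 11.8 FPKM over all KO libraries, 6.49 to 9.23 over no Dex and 7.38 to 11.97 over Dex. The part of these cells in the Neat1 differences was not tested. The marker sum in WT was higher at day 2 than at day 0, whereas Neat1 in WT was lower and nearly level with KO. At day 0 the sums of no Dex (6.49 and 6.80) and Dex (7.38 and 7.42) lay close together while Neat1 differed 2.52-fold, with 2 of the 6 markers called higher and 1 lower in Dex. At later days the markers were higher in Dex than in no Dex: 5 of 6 at day 2, 4 of 6 at day 4 and 5 of 6 at day 6, with 0 lower. Of all genes, 12.7%, 18.3% and 23.8% were higher at these days. The mean sums of no Dex and Dex were 8.99 and 11.1 FPKM at day 4 and 8.76 and 11.9 FPKM at day 6, days at which Neat1 was higher in Dex, and 7.25 and 11.6 FPKM at day 2, when its Dex difference was not called. None of the defining markers was at 0 in WT at day 0, where Gata4 read 4.05 and 3.60 FPKM, Gata6 5.93 and 5.79, and Sox17 4.22 and 5.71.

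A gene beside Neat1 did not share its day 0 difference. Frmd8, 4224 bases away, differed by -0.06 between KO and WT (adjusted p = 0.581), and it was higher in KO at day 6 (0.32, adjusted p = 0.00141), where Neat1 was lower. Malat1 itself differed by 0.00 ± 0.06 at day 0 (95% interval -0.12 to 0.13).

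Of 10 paraspeckle protein genes, 8 were lower in KO than in WT at day 6 and 0 were higher (34.2% and 30.9% of all genes). Their median was -0.24 beside -0.03 for all genes. At day 0, 5 were lower and 3 higher (29.8% and 18.4% of all genes). At day 2, when Neat1 was nearly level, 7 were lower and 0 higher (21.3% and 37.5%, median -0.26 beside 0.09). At day 4, 5 were lower and 1 higher (24% and 36.5%). In Dex against no Dex, 8 of the 10 were higher and 0 lower at day 0 (27.3% and 16.1% of all genes, median 0.155 beside 0.04). At day 2, 1 was higher and 3 were lower (12.7% and 31.5%), and at day 4, 5 were higher and 0 lower (18.3% and 21.9%). At day 6, when Neat1 was higher in Dex, 3 were higher and 2 lower (23.8% and 19%, median 0.013 beside 0.009). The largest differences in KO at day 6 were those of Rbmx, an RNA-binding protein of the hnRNP G family, at 23.5 ± 0.42 against 82.9 ± 1.76 FPKM (SD, n = 2; -1.78, adjusted p = 2.25e-18 by limma), and Tardbp, which encodes TDP-43, at 389 ± 9.66 against 514 ± 11.9 FPKM (SD, n = 2; -0.40, adjusted p = 1.84e-09 by limma).

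The largest differences of Malat1 between lines were smaller than those of Neat1. They were seen in the fusion lines and, at day 2, also in KO against WT (0.59). At day 0 it read 484 and 423 FPKM in WT, 446 and 461 in KO, 623 and 679.6 in no Dex, and 686 and 722 in Dex. WT and KO overlapped, and both fusion groups lay above them. No Dex exceeded KO 1.44-fold (0.52 ± 0.06, adjusted p = 8.47e-07), and Dex did not differ from no Dex beyond the threshold (0.11, 95% interval -0.02 to 0.24).

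At day 2 the KO libraries stood with the fusion lines. Malat1 read 507 and 495 FPKM in WT, 777 and 733 in KO, 731 and 719 in no Dex, and 808 and 787 in Dex, so both WT libraries lay below all others. KO exceeded WT 1.51-fold (0.59 ± 0.06, adjusted p = 9.90e-08) and no Dex did not differ from KO beyond the threshold (-0.06, adjusted p = 0.510). At day 4 KO and WT overlapped (-0.04, adjusted p = 0.559, or -0.15 and 0.0385 after rescaling), with 418 and 447 FPKM in WT, 423 and 415 in KO, 445 and 446 in no Dex, and 528 and 554 in Dex.

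At day 6 Malat1 read 478 and 441 FPKM in WT, 425 and 406 in KO, 589 and 545 in no Dex, and 772 and 703 in Dex, with no overlap between any lines. Dex exceeded no Dex 1.30-fold (0.38 ± 0.06, adjusted p = 5.43e-05), as it had at day 4 (1.21-fold, 0.28 ± 0.06, adjusted p = 0.00122). No Dex exceeded KO 1.37-fold (0.45 ± 0.06, adjusted p = 5.15e-06). KO was slightly below WT (-0.15 ± 0.06, adjusted p = 0.0455), a call that was lost without WT replicate 1 (adjusted p = 0.328), without either KO library (0.0524 and 0.224), after rescaling (0.128), with no filter on low values (0.0836) and with the compared groups fitted alone (0.0884). The change of Malat1 across the 6 days depended on the scaling. As deposited, a fall was called in no Dex (-0.20 ± 0.06, adjusted p = 0.00606) and not in WT (0.02), KO (-0.13) or Dex (0.07). After rescaling a fall was called in all 4 lines, at -0.15 in WT (adjusted p = 0.0336), -0.29 in KO (0.000242), -0.48 in no Dex (4.96e-07) and -0.14 in Dex (0.036). With each line's groups fitted alone, KO was called (adjusted p = 0.0384) and no Dex was not (0.0559). The no Dex call was also lost without no Dex day 0 replicate 2 (0.0984) or day 6 replicate 2 (0.0860).

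An annotated gene on the opposite strand, Gm37376, lies inside the Malat1 exon and ran from 147 to 437 FPKM, with r = 0.95 to Malat1 over the 16 group means. Strand-aware counting is not given in the sources used here, so reads of the 2 cannot be told apart. Of 11 speckle and splicing protein genes, 9 were lower and 2 higher in KO at day 2, the day of the Malat1 excess. Of all genes, 21.3% were lower and 37.5% higher at that day (median -0.18 for the 11 beside 0.09). At day 6, 7 of the 11 were lower and 3 higher (34.2% and 30.9% of all genes). Ythdc1, a nuclear reader of m6A, was among those higher at day 6, at 112 ± 0.96 FPKM in KO against 69.1 ± 1.08 in WT (SD, n = 2; 0.69, adjusted p = 4.32e-12 by limma). Srsf1, a splicing factor of the SR family, was among those lower, at 251 ± 8.29 against 359 ± 0.52 FPKM (SD, n = 2; -0.52, adjusted p = 1.97e-08 by limma).

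Among the host genes, Snhg3 showed the largest differences between lines in stem cells. At day 0 it read 60.5 and 71.2 FPKM in WT, 116 and 129 in KO, 133 and 139 in no Dex, and 79.2 and 86.1 in Dex. The KO and no Dex libraries all lay above the WT and Dex libraries. KO exceeded WT 1.85-fold (0.88 ± 0.14, adjusted p = 2.67e-05), and Dex was 1.65-fold below no Dex (-0.72 ± 0.14, adjusted p = 0.000291).

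The same order held in part at day 2, where Snhg3 read 60.9 and 61.9 FPKM in WT, 105 and 101 in KO, 91.1 and 108 in no Dex, and 78.7 and 79.5 in Dex. KO exceeded WT 1.68-fold (0.73 ± 0.14, adjusted p = 0.000129), and the Dex difference missed the threshold (-0.32, adjusted p = 0.0649, or -0.44 and 0.0437 without no Dex replicate 1). At day 4 WT was highest, at 107 and 103 FPKM, above 90.5 and 79.6 in KO, 89.8 and 90.5 in no Dex, and 75.5 and 67.3 in Dex. KO against WT was not called at day 4 (-0.30, adjusted p = 0.0664), but it was after rescaling (-0.41, adjusted p = 0.0159) and with the compared groups fitted alone (adjusted p = 0.0396). At day 6 Snhg3 read 56.4 and 44.0 in WT, 33.0 and 48.5 in KO, 50.8 and 43.5 in no Dex, and 51.9 and 51.6 in Dex, so the lines overlapped. KO against WT at day 6 was not called (-0.31, adjusted p = 0.0578), but it was without WT replicate 2 (-0.48, adjusted p = 0.0132) or KO replicate 2 (-0.58, adjusted p = 0.000939). The difference between KO and WT changed from day 0 to day 6 by -1.19 ± 0.19 (adjusted p = 3.25e-05), and Snhg3 fell 2.99-fold in KO and 2.89-fold in no Dex over those days, against 1.31-fold in WT. The fall in WT (-0.39, adjusted p = 0.0143) was not called without WT day 0 replicate 2 (adjusted p = 0.143), WT day 6 replicate 2 (0.226) or with these groups fitted alone (0.105).

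Snhg3 shares exon sequence with Rcc1, the gene of a chromatin-bound exchange factor, on the same strand. Rcc1 ran from 52.6 to 113 FPKM and correlated with Snhg3 over the 16 group means (r = 0.85). In KO at day 0 Rcc1 was higher by 0.32 ± 0.03 (adjusted p = 8.08e-08), beside 0.88 for Snhg3. How the authors' counting split shared reads is not given in the sources used here, so the Snhg3 values are uncertain to that extent. The annotated Snhg3 transcript is also short, at most 581 bases, and its FPKM depends on the effective length used.

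Gas5, whose product is also known to bind the glucocorticoid receptor, was lowest in WT stem cells. At day 0 it read 76.1 and 98.3 FPKM in WT, 123 and 106 in KO, 169 and 146 in no Dex, and 133 and 132 in Dex. All WT libraries lay below all others. KO exceeded WT 1.31-fold (0.40 ± 0.11, adjusted p = 0.00491), a call lost without WT replicate 1 (0.22, adjusted p = 0.145), without KO replicate 1 (0.29, adjusted p = 0.0781) or with the compared groups fitted alone (adjusted p = 0.176). At day 2 the difference was clearer, with 88.9 and 99.0 FPKM in WT, 154 and 139 in KO, 152 and 137 in no Dex, and 123 and 120.3 in Dex, and KO was 1.56-fold above WT (0.63 ± 0.11, adjusted p = 4.89e-05).

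At day 4 the WT and KO libraries of Gas5 overlapped, at 186 and 195 FPKM in WT, 169.8 and 197 in KO, 205 and 186 in no Dex, and 216 and 218 in Dex. At day 6 KO was lowest, with 136 and 137 FPKM, while WT had 184 and 166, no Dex 174 and 166, and Dex 158 and 182. KO was then 1.28-fold below WT (-0.35 ± 0.11, adjusted p = 0.00740), a call lost without WT replicate 1 (-0.28, adjusted p = 0.0787). No Dex exceeded KO at day 0 (0.45 ± 0.11, adjusted p = 0.00167, or 0.0625 with the compared groups fitted alone) and at day 6 (0.32 ± 0.11, adjusted p = 0.0212). The day 6 call was lost without either KO library (0.0772 and 0.0709) or no Dex replicate 1 (0.107). The change of the KO difference from day 0 to day 6 was -0.75 ± 0.15 (adjusted p = 0.000331). Gas5 rose 2.01-fold in WT over the 6 days (1.01 ± 0.11, adjusted p = 5.59e-08). The smaller rises in KO (0.25, adjusted p = 0.0377) and Dex (0.35, adjusted p = 0.00620) were not called after rescaling (0.09, adjusted p = 0.426, and 0.14, adjusted p = 0.236). Dex did not differ from no Dex beyond the threshold at any day (adjusted p = 0.0830 at day 0, where rescaling gave 0.0200 and leaving out no Dex replicate 2 gave 0.0443). The rise in KO was also not called without KO day 0 replicate 2 (adjusted p = 0.297) or either KO day 6 library (0.0942 and 0.103), nor that in Dex without Dex day 6 replicate 2 (0.0915).

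Snhg1, the highest of the hosts, had the closest duplicates. At day 0 it read 161 and 171 FPKM in WT, 229 and 226 in KO, 302 and 287 in no Dex, and 266 and 268 in Dex, with no overlap between lines. KO exceeded WT 1.37-fold (0.45 ± 0.03, adjusted p = 3.31e-09), and no Dex exceeded KO 1.30-fold (0.37 ± 0.03, adjusted p = 3.10e-08). Dex was 1.10-fold below no Dex (-0.14 ± 0.03, adjusted p = 0.00224), a difference that was not called with these groups fitted alone (adjusted p = 0.0506) and grew to -0.22 on rescaling (2.52e-05). At day 2 all lines were between 282 and 323 FPKM, and at day 4 between 258 and 297. The KO excess at day 2 (0.15, adjusted p = 0.000780) was not called after rescaling (0.03, adjusted p = 0.450). No Dex exceeded KO at day 4 (0.13, adjusted p = 0.00661), a call lost without KO replicate 2 (adjusted p = 0.0833) or no Dex replicate 1 (0.0615), or with these groups fitted alone (0.061).

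At day 6 Snhg1 read 192 and 196 FPKM in WT, 187 and 173 in KO, 216.9 and 217 in no Dex, and 218 and 227 in Dex, so both fusion groups stood above the others. No Dex exceeded KO 1.2-fold (0.27 ± 0.03, adjusted p = 2.04e-06). The KO deficit (-0.11 ± 0.03, adjusted p = 0.00991) was not called without WT replicate 2 (adjusted p = 0.0757), without KO replicate 2 (0.227), after rescaling (0.0775) or with the compared groups fitted alone (0.118). The change of the KO difference between days was -0.56 ± 0.05 (adjusted p = 8.69e-09). The gene beside Snhg1, Slc3a2, starts 106 bases away on the other strand and went another way, higher in KO by 0.69 at day 6 (adjusted p = 1.36e-13) and not called at day 0 (0.05, adjusted p = 0.172).

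Snhg6 varied least. It read 15.3 and 13.3 FPKM in WT at day 0 and 18.4 and 14.6 in KO, and 22.1 to 25.0 FPKM in WT, KO and no Dex at day 4 (21.8 and 23.5 in Dex). At day 6 it read 16.5 and 16.9 in WT, 18.2 and 16.4 in KO, 23.7 and 21.3 in no Dex, and 19.5 and 22.6 in Dex. KO and WT overlapped at all 4 days, with differences between 0.01 and 0.18 and a 95% interval of -0.18 to 0.27 at day 6. None was called, except at day 0 when KO replicate 2 was left out (0.34, adjusted p = 0.0276). No Dex exceeded KO at day 6 (0.36 ± 0.11, adjusted p = 0.00885), a call lost without KO replicate 2 (adjusted p = 0.0890) or no Dex replicate 1 (0.0892). The annotated Snhg6 transcripts reach 816 bases, and its FPKM too depends on the effective length.

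**Figure D3:**
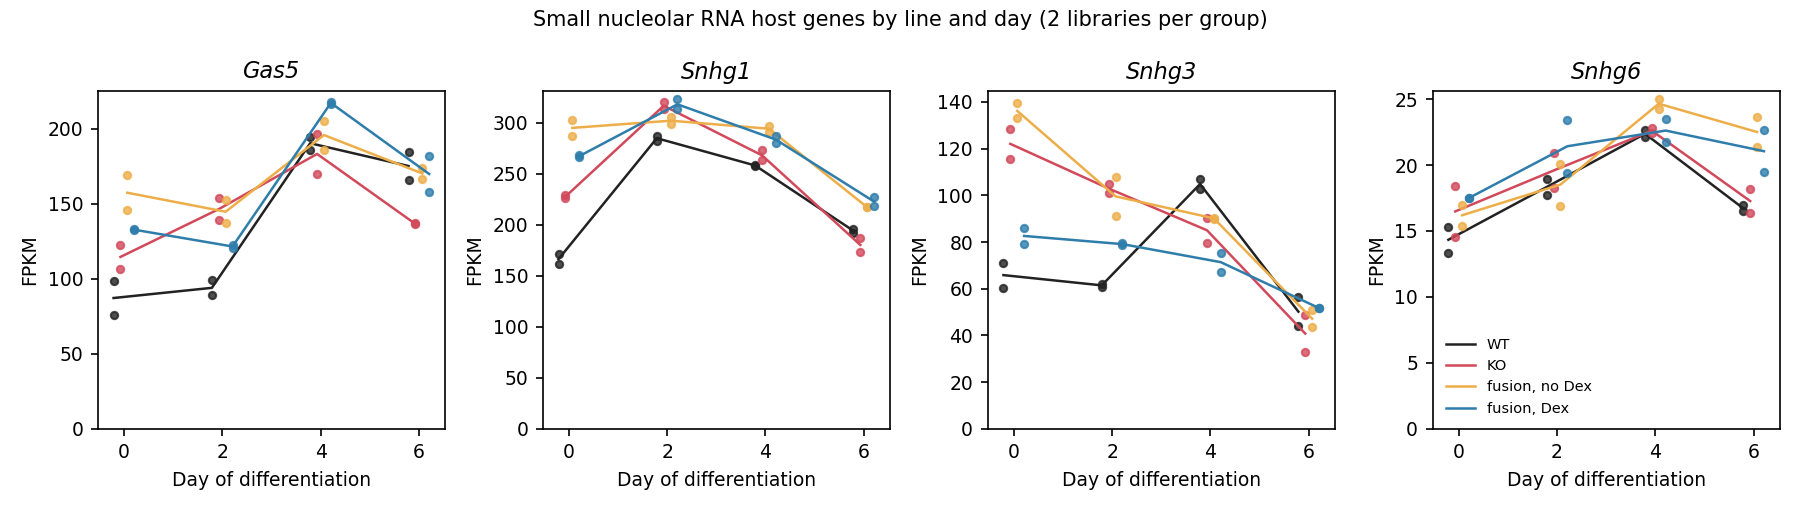
FPKM (linear scales from 0) of the host genes Gas5, Snhg1, Snhg3 and Snhg6 against day of differentiation, with 1 point per library and lines through the group means. At day 0 WT is lowest in each panel by its mean, and Snhg3 stands at 116 and 129 FPKM in KO against 60.5 and 71.2 in WT, while at day 6 the Snhg3 libraries overlap, Gas5 is lowest in KO (136 and 137 FPKM) and Snhg6 is highest in no Dex by its mean.

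The small nucleolar RNAs inside Gas5 and Snhg1 have rows of their own, all listed at 0, as is Snord87 inside Snhg6. They are shorter than the 280 to 320 bases by which effective length fell below annotated length, and the libraries were of polyadenylated RNA. A value of 0 therefore does not show that these RNAs were absent. Inside Snhg3, Snora73a ran from 0 to 24.2 FPKM and Snora73b from 0 to 34.8. Both are also shorter than 280 bases, so length alone does not set a value to 0. The reason for the rows at 0 was not tested. Among 17 other host genes, 8 were higher and 3 lower in KO than in WT at day 0 (18.4% and 29.8% of all genes, median 0.15 beside -0.04). At day 6, 3 were higher and 7 lower (30.9% and 34.2%, median -0.04 beside -0.03). At day 6 the largest differences were in Snhg20, at 218.8 ± 0.91 FPKM in KO against 126 ± 1.35 in WT (SD, n = 2; 0.79, adjusted p = 7.18e-15 by limma), and Snhg14, at 9.37 ± 0.30 against 18.9 ± 0.89 (SD, n = 2; -0.94, adjusted p = 3.70e-12 by limma). In Dex against no Dex at day 0, 3 of the 17 were higher and 6 lower (27.3% and 16.1% of all genes).

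Of 10 genes for nonsense-mediated decay, the pathway that removes host transcripts, 4 were higher and 3 lower in KO at day 0 (median 0.061 beside -0.041 for all genes), and 7 higher and 2 lower at day 2 (0.21 beside 0.088). There were 8 higher and 0 lower at day 4 (0.199 beside 0.065), and 5 higher and 3 lower at day 6 (0.085 beside -0.031). Of all genes, 18.4% were higher and 29.8% lower at day 0, and 37.5% and 21.3% at day 2. The shares were 36.5% and 24% at day 4, and 30.9% and 34.2% at day 6. Smg8, which regulates the kinase of the pathway, read 19.8 ± 0.35 against 9.64 ± 0.01 FPKM at day 6 (SD, n = 2; 0.97, adjusted p = 1.29e-14 by limma), and the helicase Upf1 read 59.1 ± 0.79 against 39.0 ± 0.73 (SD, n = 2; 0.59, adjusted p = 7.51e-11 by limma). A list of 12 translation genes was drawn up as ones known for transcripts that start with pyrimidines. The rule used above for such starts was met at 3 of the 7 promoters of these genes that were at hand. Of the 12, 3 were higher and 5 lower in KO at day 0 (median -0.007 beside -0.041), and 3 and 8 at day 2 (-0.154 beside 0.088). There were 3 and 9 at day 4 (-0.245 beside 0.065), and 3 and 8 at day 6 (-0.263 beside -0.031). Nap1l1, a histone chaperone, read 643 ± 4.62 against 1119 ± 25.8 FPKM (SD, n = 2; -0.80, adjusted p = 1.33e-14 by limma), and the initiation factor gene Eif3e read 154 ± 1.31 against 250.3 ± 5.61 (SD, n = 2; -0.70, adjusted p = 1.53e-12 by limma).

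Miat rose in every line and was lower in KO than in WT from day 2. Its day 0 values were 1.30 and 1.48 FPKM in WT, 1.2 and 0.68 in KO, 0.60 and 0.81 in no Dex, and 1.11 and 0.66 in Dex. KO against WT was not called there (-0.31, adjusted p = 0.0881), but it was without KO replicate 1 (-0.51, adjusted p = 0.0200) or with a pseudocount of 0.1 (0.0407). At day 2 it read 13.1 and 13.2 in WT, 7.07 and 5.65 in KO, 7.97 and 8.94 in no Dex, and 9.02 and 11.96 in Dex. WT was above every other library, and KO was 2.07-fold below WT (-0.95 ± 0.15, adjusted p = 1.53e-05).

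At day 4 the Dex cultures joined WT. Miat read 17.3 and 16.6 FPKM in WT, 10.2 and 8.55 in KO, 12.8 and 10.6 in no Dex, and 19.6 and 18.0 in Dex. KO was 1.81-fold below WT (-0.80 ± 0.15, adjusted p = 9.85e-05), and Dex was 1.61-fold above no Dex (0.65 ± 0.15, adjusted p = 0.00155) and did not differ from WT beyond the threshold (0.14, adjusted p = 0.484). At day 6 it read 28.3 and 29.7 in WT, 16.04 and 17.8 in KO, 11.5 and 12.7 in no Dex, and 11.8 and 10.0 in Dex. WT was again above all others, and Dex lay with no Dex (-0.14, adjusted p = 0.492), 2.66-fold below WT (-1.34 ± 0.15, adjusted p = 1.76e-07). KO was 1.71-fold below WT (-0.75 ± 0.15, adjusted p = 0.000176). No Dex was below KO (-0.45, adjusted p = 0.0153), a call lost without KO replicate 2 (adjusted p = 0.107), without no Dex replicate 1 (0.0992) or with a pseudocount of 0.1 (0.0791).

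From day 0 to day 6 Miat rose 20.9-fold in WT, 18.0-fold in KO, 17.2-fold in no Dex and 12.3-fold in Dex. Only Dex was lower at day 6 than at day 4 by its means (18.8 and 10.9 FPKM), a step that was not tested. The nearest gene on 1 side, Tpst2, 47296 bases away, was higher in KO at every day, by 0.73, 1.44, 1.73 and 1.68 (adjusted p between 3.76e-15 and 5.26e-09), the direction opposite to Miat.

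Rmst was at or near 0 through day 4 and appeared at day 6 in every line. No library of days 0 and 2 exceeded 0.18 FPKM, and 11 of those 16 were listed at 0. A level of 3 fragments on its longest transcript corresponds to 0.021 to 0.0407 FPKM in these libraries, so most of those values were not distinguishable from 0. At day 4 the Dex libraries read 0.91 and 0.24 FPKM and the other 6 between 0.03 and 0.27. Dex against no Dex at day 4 was not called (0.51, adjusted p = 0.119), but it was without Dex replicate 2 (0.82, adjusted p = 0.0358) and with a pseudocount of 0.1 (1.73, adjusted p = 0.0206).

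At day 6 Rmst read 11.4 and 27.9 FPKM in WT, 2.87 and 2.94 in KO, 7.68 and 8.99 in no Dex, and 2.86 and 2.15 in Dex. The WT duplicates differed by a factor of more than 2, and yet no library of WT or no Dex reached down to KO or Dex. KO was 6.76-fold below WT (-2.28 ± 0.25, adjusted p = 1.31e-07), and leaving out a WT library moved this to -1.67 or -2.89, the value without replicate 2 being the smaller. The standard errors of Rmst pool the spread of all 16 groups, among them those at 0, so they do not show the wide WT spread. Leaving out libraries aside, the KO call held in all 5 other settings that kept Rmst, with adjusted p up to 0.0237 by limma. No Dex was 2.87-fold above KO (1.254 ± 0.25, adjusted p = 0.000319), and Dex was 3.33-fold below no Dex (-1.42 ± 0.25, adjusted p = 0.000125). So Dex was not nearer to WT than no Dex for this RNA. The change of the Dex difference from day 0 to day 6 (-1.39 ± 0.35, adjusted p = 0.00290) was not called with a pseudocount of 0.1 (adjusted p = 0.138).

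Sox2ot was low until day 4 and rose at day 6, most in WT. Its day 0 values were 1.43 and 1.41 FPKM in WT, 0.97 and 0.86 in KO, 0.65 and 0.59 in no Dex, and 0.68 and 0.69 in Dex. KO was 1.55-fold below WT (-0.34 ± 0.08, adjusted p = 0.00136), and no Dex was below KO (-0.24, adjusted p = 0.0151), a call lost without KO replicate 1 (adjusted p = 0.109) or no Dex replicate 2 (0.0889). With a pseudocount of 0.1 these log2 differences were -0.58 for KO against WT and -0.49 for no Dex against KO. Through days 2 and 4 Sox2ot stayed between 0.48 and 0.93 FPKM in all lines. The Dex libraries of day 2 (0.51 and 0.54) lay below those of no Dex (0.92 and 0.85; -0.31 ± 0.08, adjusted p = 0.00356), and the Dex libraries of day 4 (0.87 and 0.79) lay above (0.70 and 0.48; 0.21, adjusted p = 0.0427). The day 4 call was lost without no Dex replicate 2 (0.11, adjusted p = 0.414), without either Dex library (0.192 and 0.0721), with no filter (0.0941) and with the compared groups fitted alone (0.179). With a pseudocount of 0.1 the day 2 and day 4 differences were -0.66 and 0.45.

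At day 6 Sox2ot read 7.95 and 8.70 FPKM in WT, 2.71 and 3.15 in KO, 2.43 and 3.04 in no Dex, and 3.77 and 4.10 in Dex. WT was above and KO and no Dex overlapped, with Dex between. KO was 2.84-fold below WT (-1.248 ± 0.08, adjusted p = 3.47e-11). Dex was 1.44-fold above no Dex (0.41 ± 0.08, adjusted p = 0.000309, or 0.0783 with the compared groups fitted alone) and 2.12-fold below WT (-0.92 ± 0.08, adjusted p = 5.04e-09). The KO difference grew from day 0 to day 6 by -0.91 ± 0.11 (adjusted p = 8.75e-07). It rose 5.86-fold in WT, 3.20-fold in KO, 4.41-fold in no Dex and 5.74-fold in Dex. The eye field marker sums of day 6, given above, were highest in WT and second in Dex, as Sox2ot was, whereas Rmst was higher in no Dex than in Dex. The part of eye field cells in either result was not tested.

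Sox2, the stem cell and neural factor whose gene lies inside Sox2ot on the same strand without sharing an exon, did not follow it. Sox2 ran from 125.5 to 262 FPKM over all libraries, and at day 6 it read 197 and 196 FPKM in WT and 211 and 210.5 in KO. Over the 16 group means r between Sox2 and Sox2ot was 0.09.

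**Figure D4:**
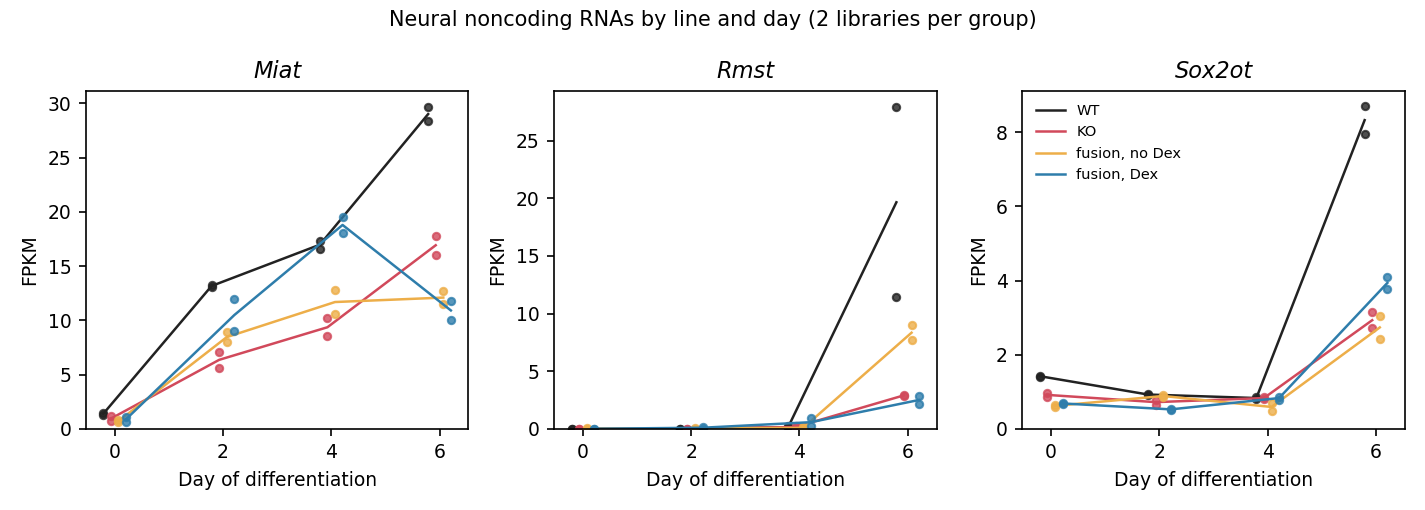
FPKM (linear scales from 0) of Miat, Rmst and Sox2ot against day of differentiation, with 1 point per library and lines through the group means. WT is highest by its mean in each panel at day 6, Miat in Dex meets WT at day 4 (19.6 and 18.0 against 17.3 and 16.6 FPKM) and is back with no Dex at day 6, and the 2 WT points of Rmst lie apart at 11.4 and 27.9 FPKM.

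Other neural genes did not go the same way. Of 10 neuronal and neural progenitor genes, 8 were higher and 1 lower in KO than in WT at day 6, when Miat, Rmst and Sox2ot were lower. Of all genes, 30.9% were higher and 34.2% lower at that day (median 0.69 for the 10 beside -0.03). Tubb3, a neuronal tubulin, read 266 ± 2.41 against 29.2 ± 0.39 FPKM (SD, n = 2; 3.15, adjusted p = 2.01e-23 by limma). Neural crest markers also moved with this comparison: all 6 were higher in KO, and their sum at day 6 was 81.5 and 82.8 FPKM in KO, 58.3 and 59.5 in no Dex, 22.7 and 22.1 in Dex, and 3.89 and 3.70 in WT. The 6 mesoderm markers summed at day 6 to 15.5 and 14.9 FPKM in WT and to 2.13 and 2.57 in KO. In no Dex they summed to 2.37 and 2.51 and in Dex to 3.37 and 3.14. The part of neural crest or mesoderm cells in the results for Miat, Rmst and Sox2ot was not tested.

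Of 18 other long noncoding RNAs tested, 7 were lower and 6 higher in KO than in WT at day 0 (29.8% and 18.4% of all genes). At day 6, 13 were lower and 4 higher (34.2% and 30.9%, median -0.60 beside -0.03 for all genes). The largest differences were in Six3os1, an antisense partner of the eye field gene Six3, at 0.44 ± 0.07 against 91.7 ± 2.04 FPKM (SD, n = 2; -6.01, adjusted p = 1.12e-21 by limma), and Vax2os, the antisense partner of Vax2, at 0.09 ± 0.03 against 9.18 ± 0.51 (SD, n = 2; -3.22, adjusted p = 4.46e-16 by limma). Without stated strand counting, antisense RNAs and their partners cannot be told apart.

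The 9 RNAs did not move as 1 group. Over the 16 group means of log2(FPKM + 1), which share day and line, Rmst and Sox2ot had r = 0.93, Gas5 and Snhg6 0.69, and Snhg1 and Snhg3 0.63. Malat1 and Neat1, neighbours in the genome, had r = 0.26. Snhg3 ran against Sox2ot (-0.75) and Rmst (-0.73), and Neat1 against Gas5 (-0.69) and Snhg6 (-0.68).

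Among 8890 named genes with a mean of at least 5 FPKM, those most like each RNA over the 16 group means were Vps33b (r = 0.971), a vacuolar sorting gene, and Lgals3 (0.960), which encodes galectin-3, for Neat1, and Psme1 (0.799), a proteasome activator subunit, and Glrx2 (0.773), a glutaredoxin, for Malat1. For Gas5 they were Ufsp2 (0.898) and Abracl (0.855), for Snhg1 Rps27l (0.929) and another small nucleolar host, Zfas1 (0.921), for Snhg3 Cinp (0.928) and Mtfp1 (0.902), and for Snhg6 Lsm8 (0.932) and Grhpr (0.900). For Miat they were Eif4g3 (0.977), a translation initiation factor gene, and Klhdc2 (0.98), for Rmst Prss23 (0.946) and Tnfaip1 (0.932), and for Sox2ot Ostm1 (0.949) and Tsc22d1 (0.949).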

How the data were processed

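The authors deposited 1 table of FPKM values, rounded to 2 decimals, for 32 libraries of polyadenylated RNA. STAR, Cuffdiff and the build mm10 are named in the submitters' processing notes, per the labels, without versions. The annotation and the treatment of strand are not given in the sources used here. The 9 RNAs, the comparison lists and the tests were chosen with earlier results of these data known.

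Values were transformed to log2(FPKM + 1) from the deposited FPKM. The 32 libraries were fitted together, with a mean for each of 16 groups and 16 residual degrees of freedom, in R 4.3.3 with limma 3.58.1 (lmFit, contrasts.fit, eBayes with trend). Genes with at least 1 FPKM in 2 or more libraries were tested (16276 genes, all 9 RNAs among them), over 22 comparisons, with Benjamini-Hochberg adjustment over all genes. The fit and the depth estimate were tested on simulated data.

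Depth was estimated from the spacing of low FPKM values among genes that have 1 transcript of 600 to 2000 bases: 75.1% to 90.7% of values lay within 0.2 of a whole fragment (40% by chance), at an effective length 280 to 320 bases below the annotated one. At these depths 3 fragments on 2 kb are 0.032 to 0.0622 FPKM, which covers counting error only. GENCODE M21 (GRCm38) matched 99.5% of rows by Ensembl ID, and 21161 rows were at 0 in every library. Promoters came from RefSeq (GRCm38.p6).

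Besides the 9 RNAs, the genes named are Mettl3, Sox2, in each list the 2 called genes with the largest change in KO against WT at day 6, and for each RNA the 2 most alike genes (no predicted Gm or Rik name). Some genes that the rule names are not reported here. Frmd8, Slc3a2, Tpst2, Rcc1 and Gm37376, which overlap or adjoin an RNA, were chosen after their values were seen. Marker lists were those of stem cells, eye field, extraembryonic endoderm, mesoderm (3 of 6 tested, summed level at most 15.5 FPKM) and neural crest. Alternatives were a pseudocount of 0.1, no filter, a mean of at least 5 FPKM, median-of-ratios rescaling (factors 0.877 to 1.105), the compared groups fitted alone, a replicate block and leaving out each library.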

Additional observations from a re-analysis of the deposited data

Results flagged for a closer look

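The difference between lines changed from day 0 to day 6 for several of the 9 RNAs, by a test of that change in the same limma fit (difference at day 6 minus difference at day 0, on log2(FPKM + 1)). Of the 9, 5 passed it in KO against WT, where 56.9% of all genes did. The changes were -0.75 for Gas5, -0.56 for Snhg1, -1.19 for Snhg3, -2.28 for Rmst and -0.91 for Sox2ot. For the 3 host RNAs the difference went from above to below WT: Gas5 from 0.40 to -0.35, Snhg1 from 0.45 to -0.11 and Snhg3 from 0.88 to -0.31, of which the Snhg3 value at day 6 was not called. The Snhg1 value at day 6 was not called after rescaling (adjusted p = 0.0775) or with the compared groups fitted alone (0.118). With those groups alone, the Gas5 value at day 0 was not called either (0.176). Without WT replicate 1 of the day, Gas5 moved to 0.22 at day 0 and -0.28 at day 6. For Rmst, listed at 0 in both lines at day 0, the change is that of day 6 alone.

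In Dex against no Dex, 6 of the 9 passed, beside 48.7% of all genes. The changes were 0.26 for Malat1, -0.51 for Neat1, 0.18 for Snhg1, 0.85 for Snhg3, -1.39 for Rmst and 0.35 for Sox2ot. The Dex difference of Neat1 went from 1.29 to 0.79, and that of Snhg3 from -0.72 to 0.13. No Dex read only 3.18 and 2.90 FPKM of Neat1 at day 6, where the log2(FPKM + 1) scale understates a difference. Leaving out libraries aside, the Neat1 change ranged from -0.51 to -0.38 over the 6 other settings. The Malat1 change was not called when no Dex day 0 replicate 2 (adjusted p = 0.0936), no Dex day 6 replicate 2 (0.0855), Dex day 0 replicate 1 (0.0687) or Dex day 6 replicate 1 (0.0976) was left out, or when these groups were fitted alone (0.0686). The Sox2ot change was not called without no Dex day 6 replicate 1 (0.23, adjusted p = 0.0992) or Dex day 6 replicate 2 (0.30, adjusted p = 0.0592), with a pseudocount of 0.1 (0.39, adjusted p = 0.113) or with these groups fitted alone (adjusted p = 0.0731). The Rmst change was not called with a pseudocount of 0.1 (adjusted p = 0.138).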

How the results depend on the processing

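Median-of-ratios rescaling moved the share of higher calls among all genes by over 10 points. It went from 63.8% to 50.6% (KO against WT, day 2), 60.3% to 49.7% (day 4), 39.3% to 57.3% (no Dex against KO, day 0), 36.3% to 51.9% (day 4), 62.9% to 48.2% (Dex against no Dex, day 0), 28.7% to 50.1% (day 2), 38.2% to 49.2% (Dex against WT, day 0) and 58.6% to 48.5% (day 6 against day 0 in no Dex). The median of all genes from day 0 to day 6 went from 0.089 to -0.026 in WT, 0.094 to -0.009 in KO, 0.166 to -0.025 in no Dex and 0.135 to -0.01 in Dex.

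Of the 9 RNAs, rescaling called 4 in KO against WT at day 4, 6 for Dex and no Dex at day 2 (5 higher, 1 lower), and 2 for no Dex and KO at that day. It turned Snhg6 in KO against WT to -0.0267 (day 2) and -0.088 (day 4), Snhg1 to -0.0525 (day 4), Snhg6 in no Dex against KO at day 0 to 0.11, Gas5 at day 2 to 0.0177, Neat1 at day 4 to 0.0019, and Snhg6 in Dex against WT at day 4 to -0.0274. From day 0 to day 6 it turned Malat1 to -0.15 in WT and -0.14 in Dex, Snhg6 in KO to -0.0818 and Gas5 in no Dex to -0.16. A pseudocount of 0.1 called 2 of the 9 for no Dex and KO at day 4 and turned the change of the Neat1 KO difference between days to -0.0235.

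Fitting the compared groups alone called fewer of all genes: 3357 in place of 7849 (KO against WT, day 0), 3941 in place of 6027 and 2284 in place of 4339 (no Dex against KO, days 2 and 4), 4342 in place of 8106 and 2603 in place of 4782 (Dex against WT, days 0 and 2), and 2 of the 9 for Dex and no Dex at day 2. A mean of at least 5 FPKM, which tests fewer genes and leaves out Rmst and Sox2ot, called 2 of the 9 for no Dex and KO at day 2, 2 for Dex and no Dex at day 6 and 3 for the change of the KO difference. From day 0 to day 6 it called 7880 genes in WT (12712 otherwise), 8148 in KO (13086), 8222 in no Dex (13324) and 8049 in Dex (13091). The cause of these shifts was not tested, other than the fewer libraries or genes that each setting uses.

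Leaving out 1 library gave 1 to 2 calls among the 9 for no Dex and KO at day 2, 0 to 1 at day 4 (0 without KO replicate 2) and 4 to 6 at day 6 (7 with all, 4 without no Dex replicate 1), and 1 to 2 for Dex and no Dex at day 2. Differences near 0 changed sign. In KO against WT the ranges were -0.0929 to 0.10 for Malat1 at day 0 and -0.0936 to 0.0041 at day 4, -0.16 to 0.0469 for Gas5 at day 4, -0.11 to 0.17 for Rmst at day 4, and for Snhg6 -0.0072 to 0.18 at day 2, -0.0031 to 0.0315 at day 4, -0.0274 to 0.11 at day 6 and -0.30 to 0.0179 for the change between days. In no Dex against KO they were -0.18 to 0.14 (day 0) and -0.20 to 0.0395 (day 2) for Snhg6, -0.37 to 0.0186 for Miat at day 0, -0.0918 to 0.0575 (day 2) and -0.0078 to 0.20 (day 4) for Gas5, -0.17 to 0.0692 (day 2), -0.0049 to 0.18 (day 4) and -0.0449 to 0.50 (day 6) for Snhg3, -0.23 to 0.0454 for Rmst at day 4 and -0.19 to 0.0421 for Sox2ot at day 6. In Dex against no Dex they were -0.0358 to 0.31 for Miat at day 0, -0.11 to 0.10 for Gas5 and -0.20 to 0.0088 for Snhg6 at day 6. In Dex against WT they were -0.0387 to 0.067 for Snhg6 at day 4, and at day 6 -0.15 to 0.0565 for Gas5 and -0.12 to 0.23 for Snhg3. From day 0 to day 6 they were -0.0745 to 0.12 for Malat1 in WT and -0.0014 to 0.13 in Dex, and -0.0883 to 0.23 for Snhg6 in KO. The lone library left in a group was assumed to vary like the other groups.

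The replicate block changed no call and no direction in 188 values. The numbers do not pair the samples: deviations of same-numbered libraries correlated at -0.09 to 0.13 over 120 pairs of groups. Depth limits Rmst, at or under 3 fragments in most libraries of days 0 and 2.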
